A study of Gallus gallus with 3 samples.

Results

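The HOXB genes are a run of homeobox transcription factor genes on 1 chromosome. Their transcripts were followed in the forelimb field of the chicken embryo, the tissue from which the wing bud arises. The members were chosen by symbol, HOXB1 to HOXB9, and 8 of these 9 genes were among the 16748 genes counted. HOXB1 was not analysed here. The rule uses no measured value.

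Wild-type chicken embryos were used at Hamburger-Hamilton (HH) stages 10, 14 and 18, which the labels give as e1.5 for HH10, e2.5 for HH14 and e3.5 for HH18, the day of development. No agent was given, embryos of both sexes were pooled, and the tissue dissected beside the somites held ectoderm, mesoderm and endoderm. Each stage gave 1 single-cell library (10x Genomics 3' chemistry), so no stage had a replicate, no test between stages was possible and no p-value is given. Each captured RNA molecule carries a unique molecular identifier (UMI). Levels are UMIs summed over the cells of a group and given as counts-per-million (CPM) of all UMIs of those cells, with exact Poisson 95% intervals. The intervals of levels, folds and shares cover counting error only, not the spread between embryos or dissections.

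HOX genes stand in a cluster in the order in which they are used. Genes at the 3' end of a cluster are switched on early and reach far toward the head, and genes at the 5' end are switched on later and stay nearer the tail. Retinoic acid is known for inducing 3' genes, and CDX factors with WNT and FGF signals for inducing 5' genes in the primitive streak and tail end. In chick lateral plate HOXB4 is known to activate TBX5, the forelimb initiation gene, and HOX genes of the ninth paralogue group to repress it. In RefSeq's chicken annotation (assembly GRCg7b, used only for names and neighbours) HOXB2 lay at one side of the cluster and HOXB7 and HOXB8 toward the other. There the span of HOXB3 overlapped HOXB4, HOXB5 and HOXB6, and HOXB5 overlapped HOXB6. The sources used here do not say how reads within such overlaps were assigned, so the levels of these 4 genes relative to each other are uncertain.

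The HH10, HH14 and HH18 libraries held 1210, 1313 and 739 cells, with 11855255, 11267879 and 6557527 UMIs. Lateral plate and limb mesenchyme, the sum of 7 classes of the authors' deposited annotation, held 599, 598 and 325 cells at the 3 stages. The limb and lateral plate markers PRRX1, TBX5, TWIST1 and LMX1B summed to 373, 803 and 2534 CPM in it. Markers of the primitive streak and presomitic mesoderm (TBXT, MSGN1, TBX6, CDX4) summed to 248, 17.1 and 5.08 CPM there. The sum of these tail-end genes was thus also highest at HH10, and CDX4 alone gave most of it at HH10 and at HH14. Median depth was 6990, 7094.5 and 8236 UMIs per mesenchyme cell, and shares of cells are given after each cell was thinned to 2800 UMIs, which left 544, 544 and 292 cells. The libraries shared 1 barcode. Red blood cells of HH14 were taken as a guide to background, and whether they transcribe HOXB genes themselves was not tested. Their values are from the HH14 library only, also where HH10 or HH18 values are set beside them. After thinning 18 cells remained, and 11.1% of them had a HOXB8 UMI (1.38 to 34.7%). Of the other 7 members 0 had a UMI in these cells, which allows a share of up to 18.5% for each. Their median depth was 8731 UMIs. Before thinning they had 9.74 CPM of HOXB8, and 0 HOXB9 UMIs, which allows up to 9.74 CPM.

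The HOXB genes of lateral plate and limb mesenchyme did not share one order of stages. HOXB8 and HOXB9, toward the 5' end, were highest at HH10, but HOXB7 beside them was highest at HH18. HOXB2, HOXB4 and HOXB6 were lowest at HH10, and HOXB5 was highest at HH14. The HOXB3 intervals of all stages overlapped. All 8 genes together made 910, 798 and 886 CPM at HH10, HH14 and HH18. With 1 library a stage, a difference in expression and a difference in where the tissue was cut cannot be told apart.

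HOXB2, known for patterning the hindbrain, had 9.53 CPM at HH10 (95% interval 7.03 to 12.6), then 18.8 CPM at HH14 (interval 15.3 to 22.8) and, in HH18 cells, 21.1 CPM (16.6 to 26.5). HOXB3, its neighbour with a similar role in the hindbrain, had 56.0 CPM at HH10 (95% interval 49.7 to 62.9), then 68.3 CPM at HH14 (interval 61.5 to 75.6) and, in HH18 cells, 59.5 CPM (51.7 to 68.1). In CPM HOXB2 was therefore lower at HH10 than at both later stages beyond counting error. The shares of thinned cells with a HOXB2 UMI, 3.13%, 4.23% and 4.79%, had intervals that overlapped. All of these shares were under the share that red blood cells allow. The HH10 level of HOXB2, 9.53 CPM, was also just under the limit given above for HOXB9 in red blood cells. The HOXB3 intervals of HH10 and HH18 overlapped. HOXB4, a member of the fourth group, had 92.4 CPM at HH10 (95% interval 84.2 to 101), then 142 CPM at HH14 (interval 132 to 152) and, in HH18 cells, 154 CPM (141 to 167). HOXB5, whose loss in the mouse shifts the forelimb along the body, had 147 CPM at HH10 (95% interval 136 to 158), then 249 CPM at HH14 (interval 236 to 263) and, in HH18 cells, 175 CPM (162 to 189). In these sums of 7 classes HOXB4 thus had its lowest value at HH10 and overlapping later ones, while HOXB5 had its peak at HH14. Splanchnic lateral plate held 687 of the 1340 HOXB5 UMIs of HH14 mesenchyme.

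HOXB6, which marks lateral plate mesoderm in the mouse, had 55.0 CPM at HH10 (95% interval 48.7 to 61.9), then 103 CPM at HH14 (interval 94.7 to 112) and, in HH18 cells, 187 CPM (173 to 201). Its 3 intervals did not overlap and followed the stages upward, and the share of cells with a HOXB6 UMI was 10.7%, 23.2% and 40.8%, the HH10 value being under the 18.5% that red blood cells allow. HOXB7, which lies between HOXB6 and HOXB8, had 55.2 CPM at HH10 (95% interval 48.9 to 62.1), then 48.0 CPM at HH14 (interval 42.3 to 54.2) and, in HH18 cells, 82.3 CPM (73.1 to 92.3). Its HH10 and HH14 intervals overlapped, and HH18 was above both.

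HOXB8, whose misexpression in the anterior mouse limb gives ectopic polarizing activity, had 439 CPM at HH10 (95% interval 421 to 458), then 149 CPM at HH14 (interval 139 to 160) and, in HH18 cells, 172 CPM (159 to 186). The share of mesenchyme cells with a HOXB8 UMI was 59.0%, 26.7% and 35.3%. The HH14 share lay inside the 1.38 to 34.7% interval of HH14 red blood cells and the HH18 share just above it, while the levels in CPM at all 3 stages were above the red blood cell interval of 2.01 to 28.5 CPM. HOXB9, a gene of the ninth group that marks thoracic levels, had 56.2 CPM at HH10 (95% interval 49.8 to 63.2), then 19.5 CPM at HH14 (interval 16.0 to 23.6) and, in HH18 cells, 36.1 CPM (30.1 to 42.9). Its HH14 level was above the 9.74 CPM that red blood cells allow. HOXB8 and HOXB9 were thus both highest at HH10, unlike HOXB7, and only for HOXB9 of these 2 did the HH14 and HH18 intervals stand apart. One HH14 cell held 19 of the 105 HOXB9 UMIs of that stage. HOXB13, the next HOXB gene beyond HOXB9 on the 5' side, had 0 UMIs in the mesenchyme of all 3 stages, which allows up to 0.60 CPM at HH10, 0.56 CPM at HH14 and 0.85 CPM at HH18.

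**Figure D1:**
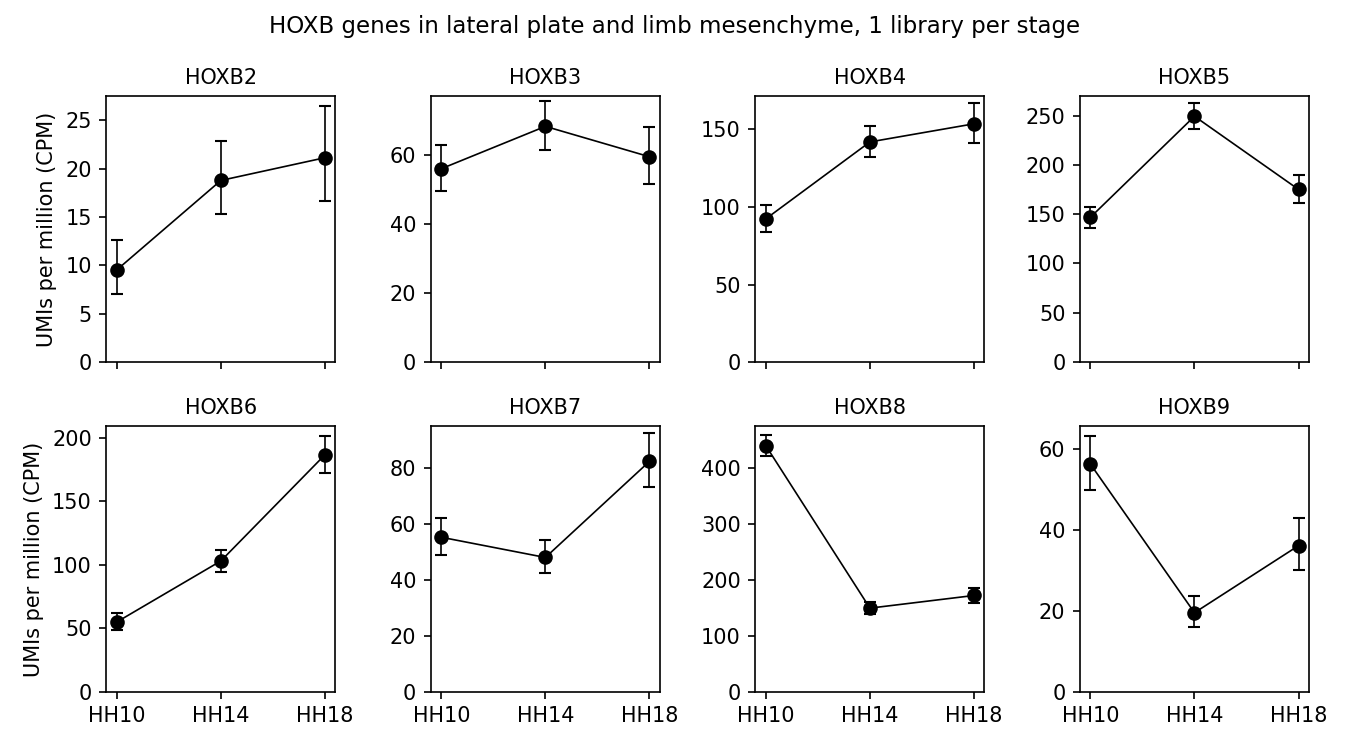
Level of each HOXB gene (vertical axis, CPM, from 0, scaled per gene) in lateral plate and limb mesenchyme at HH10, HH14 and HH18; points are 1 library each and bars exact Poisson 95% intervals. HOXB8 stood at 439 CPM at HH10 and at or below 172 CPM later, while HOXB6 stood at 55.0, 103 and 187 CPM.

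Set as folds, a gene was called when it was measured with 30 or more UMIs in both sums together and differed by 2-fold or more. In HH14 mesenchyme, against HH10 mesenchyme, 0 of the 8 members were called higher and 2 lower, where 4.34% of 9166 genes were called higher and 2.57% lower. HOXB8 was 2.94-fold lower at HH14 (2.71 to 3.19) and HOXB9 2.88-fold lower (2.29 to 3.64). Most of the others were above 1: HOXB2 was 1.97-fold higher at HH14 (1.38 to 2.84), HOXB6 1.87-fold (1.62 to 2.17), HOXB5 1.70-fold (1.55 to 1.86) and HOXB4 1.54-fold (1.37 to 1.73). The median log2 fold of the 8 genes was 0.45, against 0.05 for all genes measured. With all annotated cells of both libraries, HOXB5 and HOXB6 also passed 2-fold, at log2 folds of 1.09 and 1.11. With each of the 7 classes weighted equally, the log2 fold of HOXB9 was -0.87, short of the threshold, and without the splanchnic and extraembryonic classes it was -0.76.

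In HH18 mesenchyme, against HH14 mesenchyme, 0 of 8 members were called, with 3.71% of 9064 genes higher and 2.99% lower. HOXB9 was 1.85-fold higher at HH18 (1.42 to 2.41), HOXB6 1.81-fold (1.62 to 2.03) and HOXB7 1.71-fold (1.45 to 2.04). HOXB5 was 0.70-fold (0.64 to 0.77), the only member whose interval lay wholly below 1. The HOXB9 value rested in part on few cells: without the cell with the most UMIs in each group it was 2.15-fold (1.62 to 2.87), and after thinning the log2 fold was 0.16. The median log2 fold was 0.19 for HOXB and 0.09 for all genes.

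Over the whole interval, HH18 against HH10, 2 of 8 members were called higher and 1 lower, with 8.18% of 8953 genes higher and 4.17% lower. HOXB6 was 3.39-fold higher at HH18 (2.94 to 3.92), HOXB2 2.22-fold higher (1.52 to 3.26) and HOXB8 2.55-fold lower (2.33 to 2.80). HOXB6 and HOXB8 passed 2-fold under every alternative scaling, cell subset and weighting tried. HOXB2 did not after thinning, with a log2 fold of 0.62, with all annotated cells (0.76) or with equal class weights (0.70). HOXB9 was 0.64-fold by sums and had a log2 fold of -1.60 after thinning. The median log2 fold of all genes was 0.14 here, and median-of-ratios scaling took about that much from each member, giving 1.62 for HOXB6 and -1.50 for HOXB8.

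The HOXA, HOXC and HOXD genes, paralogues of the HOXB genes, were set beside them in the same sums. In HH14 mesenchyme against HH10, 2 of the 17 other HOX genes measured were called higher and 1 lower, beside the 4.34% and 2.57% of all genes. HOXC4 was 11.8-fold higher, with 63 UMIs at HH14 and 5 at HH10, and HOXC5 was 2.97-fold higher. HOXA7 was 3.24-fold lower at HH14 (2.95 to 3.56), where its HOXB paralogue HOXB7 had a fold of 0.87 (0.73 to 1.03). In HH18 against HH14, 11 of 18 other HOX genes were called higher and none lower, beside 3.71% and 2.99% of all genes. Their median log2 fold was 1.30. HOXD9 was 10.6-fold higher at HH18 (7.21 to 16.1), HOXA9 6.72-fold (5.58 to 8.15) and HOXC9 3.46-fold (2.65 to 4.54), and the fold of HOXB9 was 1.85. HOXC8 was 3.36-fold higher (2.12 to 5.45), and the fold of HOXB8 was 1.15 (1.03 to 1.28). In the fourth group, HOXA4, HOXC4 and HOXD4 had folds of 1.60, 1.80 and 1.80 and HOXB4 of 1.08 (0.97 to 1.21). In HH18 against HH10, 13 of 18 were called higher, beside 8.18% of all genes. All these folds are of sums of 7 classes whose mix differed between stages. Limb bud mesenchyme made up 21 of 598 cells at HH14 and 180 of 325 at HH18. Folds of the other HOX genes within classes are not given here, so the part of the mix in these differences was not tested.

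Classes were those the authors assigned to cells, by a method not given in the sources used here. They may rest on the same counts, HOXB genes included, so values between classes are descriptions. The first ectoderm cluster and the second are 2 annotated classes that share a name, and undifferentiated lateral plate cluster 7 and cluster 1 are named as annotated. At HH10 the 8 classes with 20 or more cells all had HOXB8 at 340 CPM or more, and the highest was the primitive streak at 1247 CPM (1108 to 1399). One of the 29 primitive streak cells held 114 of its 291 HOXB8 UMIs, and without it the level was 1059 CPM. The same cell held the most UMIs of HOXB3, HOXB4, HOXB5, HOXB7 and HOXB9 in that class, so its levels lean on 1 cell. Whether that cell was a doublet was not tested. Primitive mesoderm followed with 1024 CPM in 301 cells. At HH14 HOXB8 ranged from 43.4 CPM in endoderm to 413 CPM in cluster 7 over 16 classes, and the intervals of all 15 pairs of neighbours in that order overlapped. At HH18 it ranged from 23.0 CPM in the first ectoderm cluster to 256 CPM in splanchnic lateral plate over 9 classes.

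HOXB2, HOXB3 and HOXB4 shared the primitive streak with HOXB8 as their highest class at HH10, and the top classes of the other members varied. In the streak the cell with the most HOXB8 UMIs also held 14 HOXB3 UMIs, and without it HOXB3 had 108 CPM (63.8 to 170). Without the cell with the most UMIs, HOXB4 had 132 CPM there and HOXB2 17.4 CPM from 4 UMIs. The HOXB2 intervals of all 7 pairs of neighbours in order of level overlapped at HH10. HOXB5 was highest in cluster 1 at HH10 (180 CPM), in splanchnic lateral plate at HH14 (370 CPM) and in flank lateral plate at HH18 (207 CPM). HOXB4 was highest in primitive streak at HH10 (129 CPM), in extraembryonic lateral plate at HH14 (173 CPM) and in the first ectoderm cluster at HH18 (174 CPM). HOXB6 was highest in cluster 1 at HH10 (86.4 CPM), in gut at HH14 (264 CPM) and in splanchnic lateral plate at HH18 (235 CPM). For these 3 genes each top class had an interval that overlapped that of the class below it. HOXB7 was highest in blood vessels at HH10 (151 CPM), in intermediate mesoderm at HH14 (104 CPM) and in splanchnic lateral plate at HH18 (128 CPM). HOXB3 ranged from 1.67 CPM in blood vessels to 137 CPM in primitive streak at HH10, and HOXB2 was at or below 28.2 CPM in every class.

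**Figure D2:**
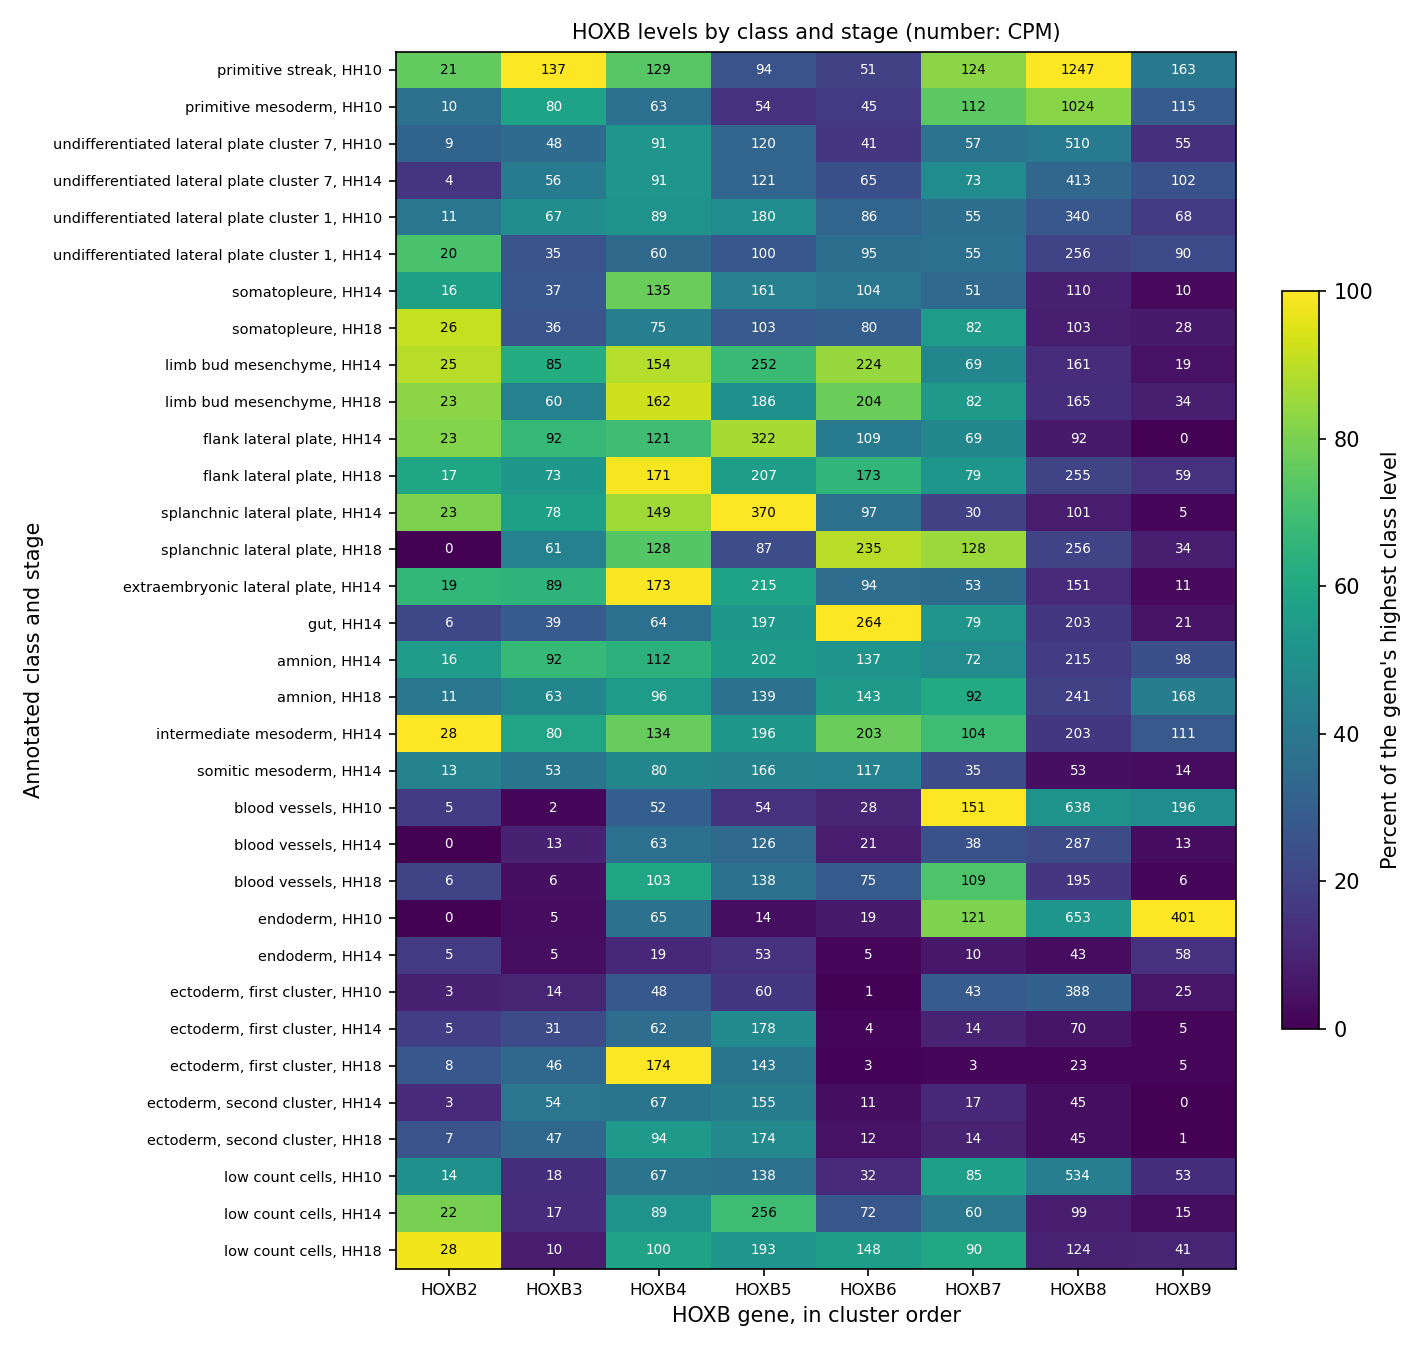
Level of each HOXB gene (columns, in cluster order) in each annotated class and stage with 20 or more cells (rows); numbers are CPM and colour is the percent of that gene's highest class level. HOXB8 is brightest in the HH10 primitive streak and primitive mesoderm (1247 and 1024 CPM), HOXB5 in HH14 splanchnic lateral plate (370 CPM) and HOXB9 in HH10 endoderm (401 CPM).

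Stages were also compared within each class, so that the mix of classes does not enter, though a changed mix of cells within a class can. In HH14 against HH10, 32 pairs of class and gene were measured in 6 classes, of which 4 were called higher and 9 lower, where 3.04% of all such pairs were called higher and 5.88% lower. HOXB8 was below its HH10 level in all 6 classes and past 2-fold in 4 of them. It had 43.4 CPM at HH14 and 653 CPM at HH10 in endoderm, 15.0-fold lower (7.70 to 33.6), and 70.1 and 388 CPM in the first ectoderm cluster, 5.54-fold lower (4.13 to 7.55). In blood vessels it had 287 CPM at HH14 and 638 CPM at HH10, 2.22-fold lower (1.71 to 2.92). In low count cells, a class that is no cell type, limb and lateral plate markers summed to 671 CPM at HH14 and 209 CPM at HH10. There HOXB8 had 99.4 and 534 CPM, 5.37-fold lower (3.77 to 7.81). In endoderm 6 of the 9 HH14 UMIs lay in 1 cell, and without the top cells the levels were 15.2 CPM at HH14 and 576 CPM at HH10, 38.0-fold lower (12.7 to 187), with the HH14 level inside the red blood cell interval. The 4 primitive streak and presomitic markers had lower sums in the same classes, though not each marker could be lower. They summed to 19.3 CPM at HH14 and 289 CPM at HH10 in endoderm (1 and 2 detected), to 9.09 and 198 CPM in the first ectoderm cluster (1 and 2 detected) and to 8.43 and 75.3 CPM in blood vessels (1 and 3 detected). MSGN1 was at 0 in these 3 classes at both stages, and TBX6 was at 0 in endoderm and the first ectoderm cluster at both stages. The HH14 sums were CDX4 alone in endoderm and the first ectoderm cluster, and TBXT alone in blood vessels. The part of these markers in the HOXB8 differences was not tested.

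The undifferentiated lateral plate classes stood apart from this. Cluster 7 had 413 CPM of HOXB8 at HH14 and 510 CPM at HH10, a fold of 0.81 (0.69 to 0.94). Cluster 1 had 256 CPM at HH14 and 340 CPM at HH10, a fold of 0.75 (0.55 to 1.01). The same markers summed to 51.8 CPM at HH14 and 296 CPM at HH10 in cluster 7, and to 111 and 181 CPM in cluster 1, with 2 detected at HH14 and 4 at HH10 in both. These 2 classes held 64 and 24 of the 598 mesenchyme cells at HH14, and 427 and 132 of the 599 at HH10. The other mesenchyme classes of HH14 had lower HOXB8: cluster 7 was 3.75-fold above somatopleure, the outer layer of the lateral plate, with 413 against 110 CPM. So the mesenchyme difference of 2.94-fold came with a difference in which classes made up the tissue, and both differences fall between the same 2 libraries.

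The HOXB9 fold varied widely between classes. In cluster 7 it had 102 CPM at HH14 and 55.2 CPM at HH10, 1.84-fold higher (1.30 to 2.55), but 1 cell held 19 of the 47 HH14 UMIs and without the top cells the fold was 1.21 (0.78 to 1.82). In cluster 1 it had 90.4 CPM at HH14 and 68.5 CPM at HH10 (18 and 99 UMIs), a fold of 1.32 (0.75 to 2.20). In blood vessels it had 12.6 CPM at HH14 and 196 CPM at HH10 (3 and 117 UMIs), 15.5-fold lower (5.17 to 76.2). In endoderm it had 57.9 CPM at HH14 and 401 CPM at HH10, 6.93-fold lower, and 11 of the 12 HH14 UMIs lay in 1 cell. HOXB7 was 3.97-fold lower at HH14 in blood vessels and 3.01-fold lower in the first ectoderm cluster. HOXB5 went the other way in the same 2 classes, with 126 CPM at HH14 and 53.6 CPM at HH10 in blood vessels (2.36-fold) and 178 and 59.9 CPM in the first ectoderm cluster (2.97-fold, 2.11 to 4.24). HOXB3 was 2.17-fold higher in that ectoderm cluster, and HOXB2 was called lower in cluster 7 on 2 and 30 UMIs, with an interval that spanned 1. The HOXB5 fold was 1.00 (0.75 to 1.33) in cluster 7 and 0.56 (0.34 to 0.88) in cluster 1. HOXB4 had folds of 1.00 (0.71 to 1.38) and 0.68 (0.34 to 1.22) there, and HOXB6 of 1.57 (1.02 to 2.35) and 1.10 (0.64 to 1.80). The higher HOXB4 and HOXB5 of the summed HH14 mesenchyme were thus not seen within these 2 classes, nor was its lower HOXB9. The first ectoderm cluster, blood vessels, endoderm and low count cells thus shared HOXB8 more than 2-fold lower at HH14. The HOXB8 folds of both undifferentiated lateral plate classes were nearer 1.

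**Figure D3:**
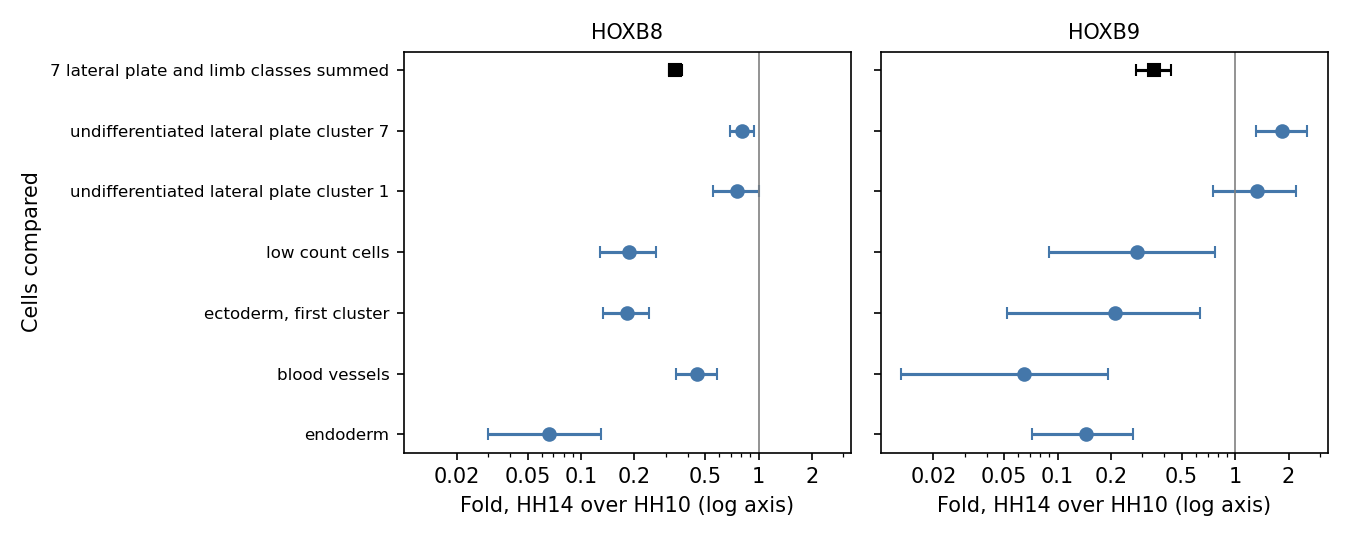
Fold of HOXB8 (left) and HOXB9 (right) in HH14 over HH10 cells on a log axis, for the 7 lateral plate and limb classes summed (square) and within each class with 20 or more cells at both stages (circles), with exact conditional binomial 95% intervals. HOXB8 lies below 1 in every class. HOXB9 lies above 1 in cluster 7 (1.84) and in cluster 1 (1.32, with an interval that spans 1), and far below it in blood vessels. The HOXB9 points of the first ectoderm cluster (4 and 19 UMIs at HH14 and HH10) and of low count cells (6 and 15 UMIs) had under 30 UMIs and were not among the pairs measured.

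In HH18 against HH14, 51 pairs were measured in 9 classes, of which 6 were called higher and 3 lower, with 4.24% and 3.23% of all pairs. In limb bud mesenchyme 7 of the 8 members had intervals that spanned 1. The exception was HOXB5, with 186 CPM at HH18 and 252 CPM at HH14 (0.74-fold, 0.58 to 0.95), and HOXB9 had a fold of 1.79 (0.79 to 5.02) on 6 UMIs at HH14. The class had 165 CPM of HOXB8 at HH18 and 161 CPM at HH14 (1.03-fold, 0.77 to 1.40), and 204 and 224 CPM of HOXB6 (0.91-fold, 0.71 to 1.19). This class held 180 of 325 mesenchyme cells at HH18 and 21 of 598 at HH14, so the 1.81-fold higher HOXB6 of the summed mesenchyme was not seen within it. Flank lateral plate, the body wall between the limbs, had 255 CPM of HOXB8 at HH18 and 92.0 CPM at HH14, 2.77-fold higher (1.64 to 5.0). HOXB9 in flank had 58.5 CPM from 28 UMIs at HH18 and 0 UMIs at HH14, which allows up to 17.3 CPM over the group. The exact lower limit of its fold was 2.58, and with under 30 UMIs it was not among the pairs measured.

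Splanchnic lateral plate, the gut-side layer, had 3 members called higher and 2 lower, from 21 cells at HH18 and 215 at HH14, where 5.65% of its genes were called higher and 10.6% lower. HOXB5 had 87.4 CPM at HH18 and 370 CPM at HH14, 4.24-fold lower (2.46 to 8.0). HOXB7 had 128 CPM at HH18 and 29.6 CPM at HH14, 4.31-fold higher (2.42 to 7.38). HOXB8 was 2.52-fold and HOXB6 2.43-fold higher at HH18, so the middle and 5' genes were higher there while HOXB5 was lower. The other lower call, HOXB2, had 0 UMIs at HH18 and 42 at HH14, and its interval spanned 1, with a fold of up to 1.15. In the first ectoderm cluster HOXB4 had 174 CPM at HH18 and 62.3 CPM at HH14, 2.79-fold higher (1.90 to 4.13), and HOXB8 had 23.0 and 70.1 CPM, 3.04-fold lower (1.49 to 7.01).

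In HH18 against HH10, 15 pairs were measured in 3 classes, with 5 called higher and 5 lower, where 6.05% and 5.75% of all pairs were. HOXB8 was lower in all 3: in the first ectoderm cluster it had 23.0 CPM at HH18 and 388 CPM at HH10, 16.9-fold lower. HOXB9 in blood vessels had 1 UMI at HH18 and 117 at HH10, 34.2-fold lower with a counting interval of 6.01 to 1361. HOXB5 in blood vessels was 2.57-fold higher and HOXB6 there 2.62-fold higher at HH18. Low count cells, which the authors set apart and which are no cell type, had HOXB6 4.66-fold higher and HOXB8 4.30-fold lower at HH18.

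Limb bud mesenchyme and flank lateral plate of the HH18 library were then set side by side, to see which HOXB genes differ between limb and non-limb lateral plate. None of the 8 members reached 2-fold, while 5.04% of 7043 genes were called higher in limb bud and 4.52% lower. HOXB8 had 165 CPM in limb bud and 255 CPM in flank, 0.65-fold (0.53 to 0.80). HOXB9 had 33.9 CPM in limb bud and 58.5 CPM in flank, 0.58-fold (0.37 to 0.92). Without the cell with the most UMIs in each class it had 31.6 and 50.5 CPM. After thinning its log2 fold was 0.97, the opposite direction, but on few UMIs. The thinned limb bud cells held 3 HOXB9 UMIs in cells with a TBX5 UMI and 6 in cells without. HOXB6 had a fold of 1.18 (0.93 to 1.50) and the other 5 members had intervals that spanned 1. Of the 18 other HOX genes measured, 5 were called higher in limb bud, among them HOXD9 (3.38-fold) and HOXC5 (3.30-fold), and HOXD10 had 76 UMIs in limb bud and 0 in flank.

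Splanchnic lateral plate was next compared with somatopleure at HH14. HOXB5 had 370 CPM in splanchnic cells and 161 CPM in somatopleure, 2.30-fold higher (1.97 to 2.71). HOXB3 had 78.2 CPM in splanchnic cells and 37.0 CPM in somatopleure, 2.11-fold higher (1.51 to 3.01). These were the 2 called members of 7 measured, both higher, where 9.64% of 6846 genes were called higher and 1.75% lower. After thinning the log2 folds were 0.69 for HOXB5 and 1.73 for HOXB3. HOXB7 was 0.58-fold (0.40 to 0.84), and HOXB4, HOXB6 and HOXB8 had folds of 1.11, 0.94 and 0.92. Of the 15 other HOX genes measured, 0 were called higher in splanchnic cells and 9 lower, and 3 had a fold above 1. HOXA9 was 12.8-fold lower in splanchnic cells, HOXC5 4.10-fold and HOXD3, a paralogue of HOXB3, 3.55-fold.

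At HH10 primitive mesoderm was compared with undifferentiated lateral plate cluster 7. HOXB8 had 1024 CPM in primitive mesoderm and 510 CPM in cluster 7, 2.01-fold higher (1.90 to 2.12). HOXB9 had 115 and 55.2 CPM, 2.08-fold higher (1.75 to 2.48), and HOXB7 was 1.96-fold higher (1.66 to 2.33). HOXB5 had 54.1 CPM in primitive mesoderm and 120 CPM in cluster 7, 2.22-fold lower (1.89 to 2.62), and HOXB4 was 0.70-fold (0.59 to 0.83). So 2 members were called higher and 1 lower, with 5.05% of 8577 genes higher and 1.17% lower. HOXB8 and HOXB9 lay at the 2-fold line: median-of-ratios scaling, which took out most of the all-gene median log2 fold of 0.19, left them at log2 folds of 0.84 and 0.89 and left HOXB5 at -1.32.

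The inducers of HOX genes differed in the same pair of classes. Of 7 posterior inducers measured, 4 were called higher in primitive mesoderm and 0 lower, beside the 5.05% and 1.17% of all genes. The WNT ligand genes WNT3A and WNT8A were 5.93-fold and 2.46-fold higher and FGF8, a growth factor gene, 4.37-fold higher. Of 12 retinoic acid pathway genes, 1 was called higher and 3 lower in primitive mesoderm. ALDH1A2, the enzyme that makes retinoic acid in lateral plate, was 2.33-fold lower, and RDH10, which makes its substrate, 2.36-fold lower. Primitive streak and presomitic markers summed to 688 CPM in primitive mesoderm and 296 CPM in cluster 7, and their part in the HOXB values was not tested.

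HOXB6 was low in ectoderm and higher in lateral plate mesoderm at all 3 stages. It had 12.4 CPM in the second ectoderm cluster and 204 CPM in limb bud mesenchyme at HH18, 16.4-fold lower (9.33 to 32.0). At HH14 it had 3.89 CPM in the first ectoderm cluster and 104 CPM in somatopleure, 26.6-fold lower (8.91 to 131). At HH10 the first ectoderm cluster had 1 HOXB6 UMI and primitive mesoderm 202. The ectoderm levels were near that of HH14 red blood cells, 3.25 CPM from 1 UMI, except in the second cluster. HOXB5, which overlaps HOXB6 in the RefSeq annotation, did not share this pattern: it had 174 CPM in the second ectoderm cluster and 186 CPM in limb bud at HH18 (0.94-fold, 0.78 to 1.12), and 178 CPM in the first ectoderm cluster and 161 CPM in somatopleure at HH14 (1.11-fold, 0.88 to 1.38). In the thinned cells, HOXB6 was found in 0%, 1.18% and 0% of the first ectoderm cluster at HH10, HH14 and HH18, and HOXB5 in 16.9%, 34.1% and 22.5%. The HH10 share of HOXB5 was under the 18.5% that red blood cells allow. Lower levels in ectoderm were not particular to HOXB6. In the second ectoderm cluster against limb bud mesenchyme at HH18, HOXB7 was 5.63-fold, HOXB8 3.70-fold and HOXB2 3.21-fold lower. HOXB9 was 32.7-fold lower there, on 1 and 83 UMIs. Low HOXB6 was not particular to ectoderm either. At HH14 endoderm had 4.82 CPM of it from 1 UMI, and blood vessels 21.1 CPM from 5 UMIs. Gut cells, by contrast, had 264 CPM of HOXB6 against 97.0 CPM in splanchnic lateral plate at HH14, 2.72-fold higher (2.08 to 3.53).

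HOXB9 was at 91.7 CPM in the median of the 8 HH10 classes, at 14.4 CPM in that of the 16 HH14 classes and at 33.6 CPM in that of the 9 HH18 classes. These sets of classes differ, with primitive streak and primitive mesoderm at HH10 only, so the medians do not compare like classes. HH10 blood vessels had 196 CPM, primitive streak 163 CPM from 38 UMIs and primitive mesoderm 115 CPM, and HH14 cluster 7 had 102 CPM. In the primitive streak the cell with the most HOXB8 UMIs also held 18 of the 38 HOXB9 UMIs, and without it the level was 120 CPM. HH10 endoderm had 401 CPM against 55.2 CPM in cluster 7, 7.27-fold higher (5.56 to 9.44), and 319 CPM without its top cell. The amnion, the membrane continuous with the somatopleure, had 98.2 CPM against 9.64 CPM in somatopleure at HH14, 10.2-fold higher (5.59 to 20.3). At HH18 it had 168 CPM against 28.3 CPM, 5.95-fold higher (3.19 to 12.3). The 6 ectoderm markers summed to 2616 CPM in amnion and 491 CPM in somatopleure at HH14 (4 and 5 detected), and to 2430 and 402 CPM at HH18 (3 detected in both), and their part in the HOXB9 difference was not tested. TFAP2A, one of them, was at 0 in both classes at both stages. In amnion GRHL3 was also at 0 at both stages, and WNT6 at HH18. The sum was not particular to ectoderm. At HH14 it was 3331 CPM in the first ectoderm cluster and 1723 CPM in the second, but also 3805 CPM in endoderm and 3038 CPM in gut. Intermediate mesoderm had 111 CPM of HOXB9 at HH14 (87.5 to 140). That class also held the neural tube markers SOX2, PAX6, SOX1 and OLIG2 at 367 CPM in sum, all 4 detected, where the next highest class of any stage had 7.67 CPM, and their part in its HOXB9 level was not tested. Blood vessels had 1 HOXB3 UMI at HH10 and primitive mesoderm 361, a fold of 0.02 with an upper bound of 0.12, although HOXB7, HOXB8 and HOXB9 were all present in those vessels.

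The UMIs of HOXB7, HOXB8 and HOXB9 were also summed, as a share of all HOXB UMIs. In lateral plate and limb mesenchyme the share was 60.5% in HH10 cells (exact binomial interval 59.0 to 61.9), 27.2% in HH14 cells (25.8 to 28.5) and 32.8% in HH18 cells (31.1 to 34.4). Without HOXB8 in numerator and denominator the shares were 23.7%, 10.4% and 16.6%, so the order of stages did not rest on HOXB8 alone. At HH10 the share was 92.0% in endoderm, 87.5% in blood vessels, 83.2% in primitive mesoderm and 51.7% in cluster 1. At HH14 it was 63.6% in cluster 7, 25.2% in limb bud mesenchyme and 16.0% in splanchnic lateral plate. Blood vessels had 60.2% (51.3 to 68.5) and endoderm 56.1% (39.7 to 71.5) at HH14, so a high share was not particular to undifferentiated lateral plate. Amnion had 40.9%, intermediate mesoderm 39.5% and gut 34.7% at that stage. Somatopleure, extraembryonic and flank lateral plate, somitic mesoderm and both ectoderm clusters lay between 17.5% and 27.4% at HH14. Both undifferentiated lateral plate clusters were at 51.7% or more at HH10 and HH14. At HH18 it was 52.6% in amnion, 30.6% in limb bud mesenchyme and 7.59% in the first ectoderm cluster (3.99 to 12.9), the lowest of all classes.

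**Figure D4:**
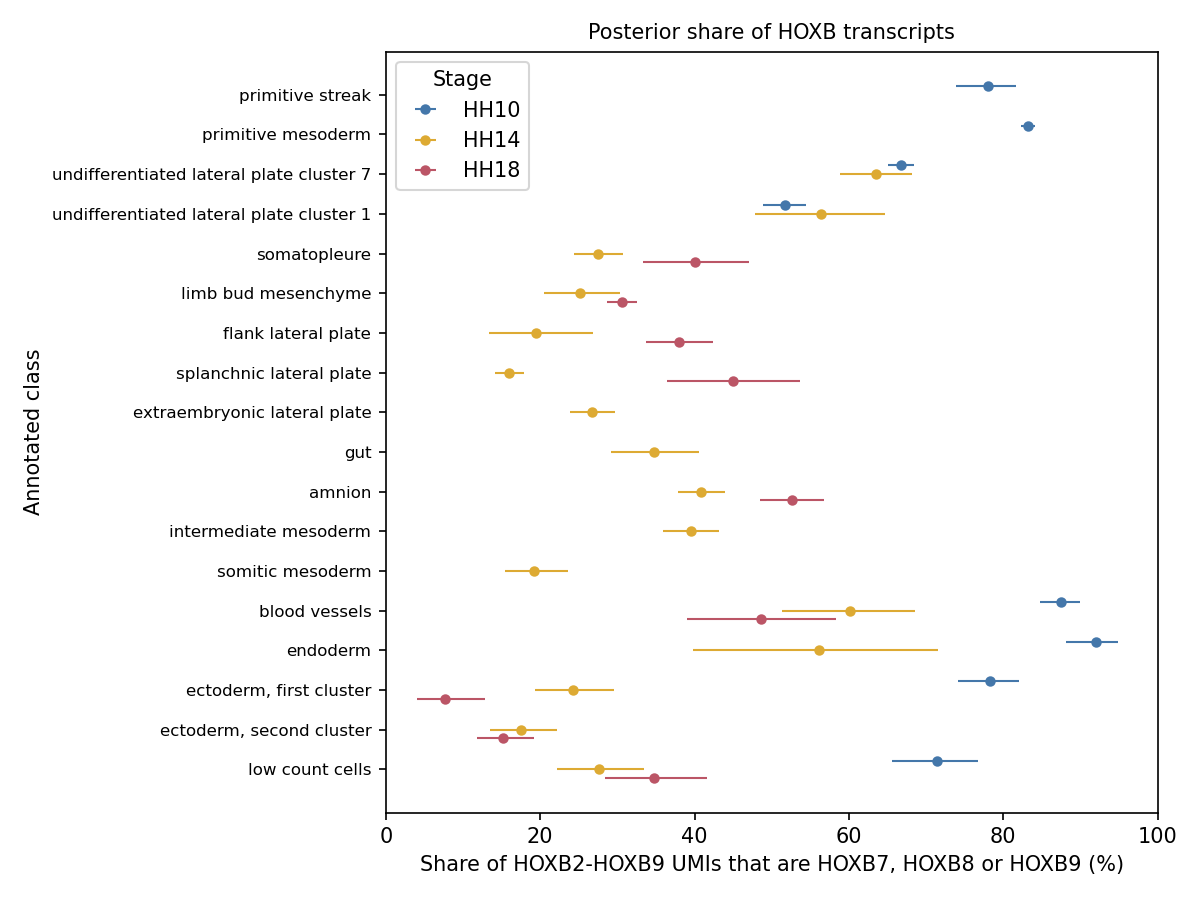
Share of HOXB2 to HOXB9 UMIs that came from HOXB7, HOXB8 or HOXB9 (horizontal axis, percent) in each annotated class (rows) at HH10, HH14 and HH18 (colours), with exact binomial 95% intervals. The first ectoderm cluster runs down to 7.59% at HH18, while cluster 7 stays at 66.8% at HH10 and 63.6% at HH14.

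Over the 33 sums of class and library with 20 or more cells, the 3 most alike pairs of HOXB genes were neighbours by number. These sums share 3 libraries and differ in depth, so the correlations are a description. On log2(CPM + 10), HOXB7 and HOXB8 had a Pearson r of 0.76, HOXB8 and HOXB9 0.73 and HOXB3 and HOXB4 0.64. HOXB5 and HOXB9 had the lowest value, -0.60, followed by HOXB5 and HOXB8 at -0.47. HOXB6 had 0.60 to HOXB7 and 0.55 to HOXB2, but 0.14 to HOXB8 and 0.14 to HOXB9. Ranks were taken among 8293 named genes with at least 100 UMIs. HOXB8 ranked 1 for HOXB7 and for HOXB9, and HOXB3 ranked 16 for HOXB4. By contrast HOXB3 ranked 552 for HOXB2 and HOXB6 ranked 915 for HOXB3, so many genes outside the cluster were more alike there.

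**Figure D5:**
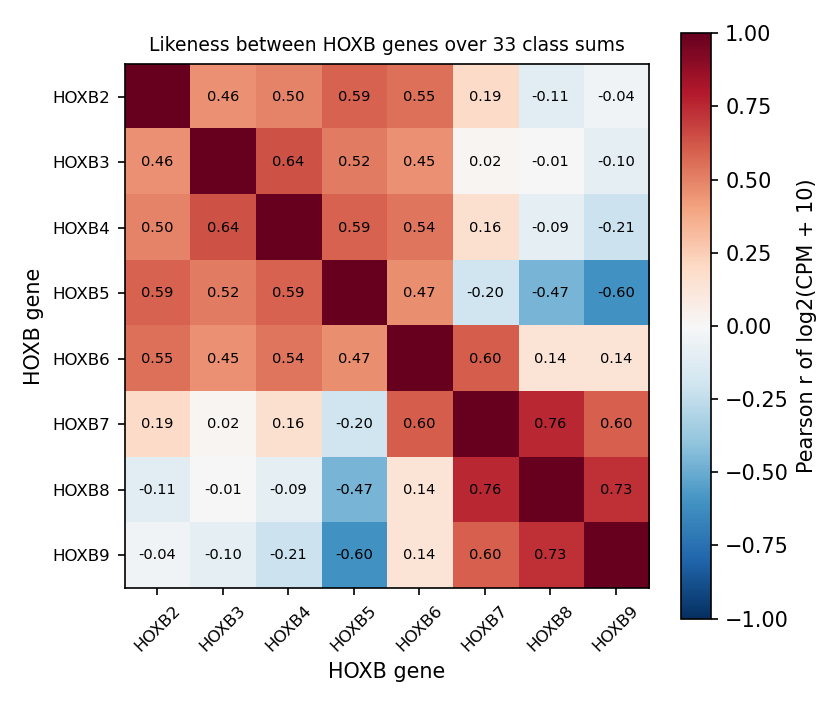
Pearson r of log2(CPM + 10) between each pair of HOXB genes over 33 sums of class and library, red for positive and blue for negative values. Values were 0.60 to 0.76 among HOXB7, HOXB8 and HOXB9 and 0.45 to 0.64 among HOXB2 to HOXB6. HOXB6 and HOXB7, across these sets, also had 0.60, and HOXB5 and HOXB9 had -0.60.

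The 3 genes most alike each member were found on the same sums, out of 8293 named genes having at least 100 UMIs. HOXB8 was most like CHIC1 (0.78), CDX4 (0.76), a HOX inducer, and Pou5f3 (0.76), an early pluripotency factor gene. HOXB6 was most like COL1A2 (0.84), a fibrillar collagen gene, ALDH1A2 (0.83) and CLMP (0.82). HOXB5 was most like ISOC1 (0.71), CMC2 (0.70) and MEIS2 (0.69), a HOX cofactor. HOXB7 and HOXB9 each had HOXB8 first (0.76 and 0.73), followed by ASPG and SLC25A32 for HOXB7 and by TKT and PITX1 for HOXB9. HOXB2 was most like SMARCE1, DNAJC7 and EED (0.76 to 0.75), HOXB3 like ARHGAP42, LRP1 and BNC2 (0.80 to 0.78), and HOXB4 like MTO1, NR2F2 and NDC80 (0.72 to 0.71). Only HOXB7 and HOXB9 had another HOX gene among their 3.

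The number of HOXB genes seen in a cell depended on depth. The median mesenchyme cell had UMIs of 3, 3 and 4 of the 8 genes at HH10, HH14 and HH18 at full depth, and of 1, 1 and 2 after thinning, when 12.3%, 16.9% and 11.6% of cells had none. TBX5 was at 0.79, 25.1 and 142 CPM in mesenchyme at HH10, HH14 and HH18. In HH14 mesenchyme, 27 thinned cells had a TBX5 UMI and 517 had none. HOXB6 had 225 CPM in cells with TBX5 and 100 CPM in cells without, 2.24-fold higher (1.27 to 3.72). Within somatopleure alone, with 8 and 132 cells, its fold was 2.01 (0.62 to 5.09). HOXB4 had a fold of 1.69 (0.96 to 2.77) and HOXB8 of 0.93 (0.44 to 1.75). HOXB9 had 1 UMI in the 27 cells with TBX5 and 24 in the 517 cells without, a fold of 0.80 (0.02 to 4.89). Within the HH18 limb bud, 66 cells had a TBX5 UMI and 109 had none, and the interval of every HOXB gene spanned 1, with HOXB6 at 1.25 (0.81 to 1.92). These cells share 1 library per stage, and cells with TBX5 came from several classes at HH14.

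Genes that act on or with HOX genes were counted in the same mesenchyme sums. In HH14 against HH10, 4.34% of all genes were called higher and 2.57% lower. Of 5 posterior inducers measured, 0 were called higher and 3 lower: WNT8A was 23.2-fold lower (8.75 to 87.1), CDX4 17.5-fold with 70 UMIs at HH14 and 1150 at HH10, and TBXT, the brachyury gene, 2.53-fold. Of 12 retinoic acid pathway genes, 3 were called higher at HH14, with RDH10 7.54-fold, ALDH1A2 3.0-fold and DHRS3 2.20-fold, and 2 lower. The lower ones were CYP26B1, which degrades retinoic acid (3.80-fold), and RXRA, a receptor gene (2.33-fold). Of 7 cofactors measured, PBX3 was called higher (2.0-fold) and none lower, and 0 of 9 Polycomb and trithorax genes were called.

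In HH18 against HH14, 3.71% of all genes were called higher and 2.99% lower. Of 4 measured genes on the posterior inducer list, 0 were higher and 2 lower, CDX4 and LIN28A (3.18-fold). LIN28A is on that list but is no CDX, WNT or FGF gene. The retinoic acid list had 3 of 12 higher, CRABP-I (21.0-fold), CYP26A1 (8.95-fold) and RXRG (3.99-fold), and 2 lower, RDH10 (2.91-fold) and DHRS3 (2.52-fold). No cofactor of 7 was called, and 1 of 9 Polycomb and trithorax genes, JARID2, was higher (2.29-fold). In HH18 against HH10, with 8.18% of all genes higher and 4.17% lower, the cofactors MEIS2 (2.42-fold) and MEIS1 (2.14-fold) were called higher of 7, and 3 of 5 posterior inducers lower. The retinoic acid list had 5 of 14 higher and 1 lower there.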

How the data were processed

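Chromium single-cell 3' libraries (version 3.1 chemistry) of the forelimb field, 1 per stage, were processed with Cell Ranger 4.0.0 on build GRCg6a (submitters' processing notes). The authors' deposited files hold raw UMI counts per gene and cell, and a table with class, cell cycle phase and UMIs per cell. It lacks the finer class for 980 cells, whose first-level class was used. Summed counts equalled the annotated ones in 84.4% of cells (largest difference 9 UMIs). Cell filters and the treatment of doublets are not given in the sources used here, and no doublet caller was run. Of 16748 genes, 4318 had an identifier only. Depth per library and group is given with the levels.

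UMIs were summed per class and library (20 or more cells) with Python 3.11.15, numpy 2.4.6, scipy 1.17.1 and pandas 2.3.3. Sums were scaled to CPM. Levels had exact Poisson, folds conditional binomial and shares Clopper-Pearson 95% intervals. Genes with 30 or more UMIs in both sums together were measured, and 2-fold was the call. A count of 0 was given the limit of 3 counts over the group. The fold code was tested on simulated data. The 7 summed classes were limb bud mesenchyme, somatopleure, flank, splanchnic and extraembryonic lateral plate, and undifferentiated lateral plate clusters 7 and 1.

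Named genes were all HOXB genes present, TBX5, up to 3 called members of each list with the largest fold, and the 3 genes most alike each member. Members and lists were chosen with earlier results of these data known. Some paralogues and class pairs were named after their values were seen. The alternatives were scaling, thinning, UMI minima, a fold of 4, G1 cells, other mesenchyme unions and, added after the data were seen, equal class weights, no low count cells and no top cell. Matplotlib 3.10.9 drew the plots.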

Additional observations from a re-analysis of the deposited data

Results flagged for a closer look

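Differences between stages that ran in opposite directions in 2 classes were picked out, 4 in all. With 1 library per stage none of these differences between classes was tested, and the values are ratios of the 2 class folds. HOXB9 in HH14 over HH10 was 1.84-fold higher in undifferentiated lateral plate cluster 7 and 15.5-fold lower in blood vessels, a ratio of 28.5, but 1 cell held 19 of the 47 HH14 UMIs of cluster 7, and without the top cells its fold was 1.21 (0.78 to 1.82), an interval that spans 1. HOXB8 in HH18 over HH14 was 2.77-fold higher in flank lateral plate and 3.04-fold lower in the first ectoderm cluster, a ratio of 8.44. HOXB5 in HH14 over HH10 was 2.97-fold higher in the first ectoderm cluster and 1.79-fold lower in undifferentiated lateral plate cluster 1, a ratio of 5.31. HOXB4 in HH18 over HH14 was 2.79-fold higher in the first ectoderm cluster and 1.81-fold lower in somatopleure, a ratio of 5.04.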

How the results depend on the processing

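No paired analysis was possible because the labels give every stage the same single replicate number and 1 library. Of 299 alternative values for single HOXB genes, 234 moved by less than the counting interval, 65 by more, and 0 called values changed sign. Of 92 alternative counts, 68 stayed within 1.5 times. In mesenchyme, HH14 over HH10, the 2 called members became 0 at a fold of 4, 4 with all annotated cells and 1 with equal class weight. In HH18 over HH14, the 0 became 1 in G1 cells and 1 without the top cell. In HH18 over HH10, 3 became 0 at a fold of 4. The 2 of splanchnic over somatopleure became 0 at a fold of 4 and 1 in G1 cells. The 3 of primitive mesoderm over cluster 7 became 1 with median-of-ratios scaling, with totals without technical genes and with the mean over cells, and 0 at a fold of 4. Limb bud over flank had 0 under every alternative that gave a value. Within classes, the 13 pairs of HH14 over HH10 became 6 at a minimum of 100 UMIs, 5 at a fold of 4 and 6 in G1 cells. The 9 of HH18 over HH14 became 17 at a minimum of 10 UMIs, 5 at 100, 5 after thinning, 3 at a fold of 4 and 4 in G1 cells. The 10 of HH18 over HH10 became 6 at 100 UMIs, 5 at a fold of 4, 3 after thinning and 4 in G1 cells. A fold of 4 and a higher minimum call fewer genes by construction, and a lower minimum can only add calls. Thinned cells and G1 cells alone hold fewer UMIs, so fewer genes reach the minimum. The shares of all genes called under each alternative are not given here, so these moves are not results about HOXB genes in particular. The cause of the other moves was not tested. Leaving out a library would leave its stage empty. Depth limits HOXB2 and HOXB9 most, with 128 UMIs or fewer in the mesenchyme of HH14 and of HH18.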
